A study of Mus musculus with 17 samples.

Results

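The Frizzled receptors Fzd1 to Fzd10 were followed in 17 mammary tumors of transgenic mice. The members were the probes that the array's design names Fzd1 to Fzd10, which gave 10 genes out of 27962 gene names and 16 probes out of 41174. Fzd2, Fzd3, Fzd5, Fzd7, Fzd8 and Fzd10 had 2 probes each and the other 4 genes had 1. Tumors came from FVB mice in which the mouse mammary tumor virus (MMTV) promoter, active mainly in mammary epithelium, drove the p75 isoform (9 tumors) or the p110 isoform (8 tumors) of the transcription factor CUX1. All tumors therefore carried a CUX1 transgene, and normal gland was not analysed here. By histology there were 9 solid carcinomas, 4 adenosquamous carcinomas, 2 adenomyoepitheliomas, 1 adenoma and 1 adenocarcinoma. Epithelial cells were isolated by laser capture, and their amplified RNA was hybridized in 1 color against an amplified universal mouse reference RNA in the other color, with the dyes swapped between arrays. A further grouping, drawn by the study from Wnt ligand genes on the same arrays, places 5 tumors in a high-Wnt cluster, 5 in a medium-Wnt and 7 in a low-Wnt cluster. Tumor names join the transgene to the number of the mouse, each tumor came from a mouse of its own, and ages are not given in the labels.

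Frizzled proteins span the cell membrane several times and bind Wnt ligands through a cysteine-rich domain outside the cell. Together with the co-receptors LRP5 and LRP6 they recruit Dishevelled, which protects β-Catenin from degradation, and some of them also signal through the planar cell polarity and calcium branches. By sequence the family falls into the groups Fzd1, Fzd2 and Fzd7, then Fzd5 and Fzd8, then Fzd4, Fzd9 and Fzd10, and last Fzd3 and Fzd6. Membrane ubiquitin ligases such as Rnf43 and Znrf3 remove Frizzleds from the surface, and R-spondins counter them.

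The 60-base probes of different Frizzled genes held 1 close pair by sequence. Their binding to transcripts of other receptors was not tested. Among the 114 pairs of probes from different Frizzled genes, the best ungapped match joined a probe of Fzd2 (A_51_P404077, chr11:102715340-102715399) and a probe of Fzd7 (A_51_P142107, chr1:59735681-59735740), on the forward strand of mm7, the build of the array's design. Both are shown 5′ to 3′, with the bases that match between them in capitals, because they are the nearest to each other in sequence and yet differed in detection.
Fzd2 A_51_P404077: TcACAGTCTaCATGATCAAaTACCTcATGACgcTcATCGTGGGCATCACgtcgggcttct
Fzd7 A_51_P142107: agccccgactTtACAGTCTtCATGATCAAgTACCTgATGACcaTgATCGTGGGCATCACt
They shared 42 of 50 aligned bases, with a longest identical run of 14 bases. The next closest pair, this Fzd7 probe and a Fzd8 probe, shared 33 of 48. In the tumors the Fzd2 probe was measured and the Fzd7 probe was not, as given below, and exchange between them was not tested. The second Fzd5 probe, A_52_P464659, has coordinates that run against the strand of its gene, whereas 98.3% of the 23471 probes with a known strand run with it.

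The tumors differed in brightness, which sets what can be said about weakly expressed receptors. Here a probe is called measured if the scanner software marked its tumor signal as well above background on all arrays of the tumor in question. By this measure 18.2% to 61.8% of all probes were measured. The reference was 9.05 to 13.3 times as bright as the tumor at the 95th percentile in p110-225, p110-374 and p110-98, the dim tumors, and at most 4.14 times in the others. The tumor labelled p110-121, a solid carcinoma, stood apart in its cell type markers. Its mean log2 ratio over 6 epithelial markers, 3 of them measured, was -2.26, against 0.93 to 3.11 in the other 16 tumors. Over 7 immune markers, all measured, it was 3.14, against -1.02 to 0.91. The p75 and p110 arrays were scanned in separate years, so transgene and scan year cannot be told apart, and all 4 adenosquamous carcinomas are p75 tumors. In RNA from captured tissue, fewer cells of a type and less RNA per cell cannot be told apart.

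Of the 10 receptors, 6 (Fzd1, Fzd2, Fzd4, Fzd7, Fzd9 and Fzd10) had a probe measured in at least 9 of the 17 tumors. With the scanner software's mark for a positive and significant signal in its place, which is less strict here, 9 receptors did (11 probes), as Fzd3 reached 12 tumors and Fzd6 and Fzd8 each 13. By the mark used throughout, Fzd1 was measured in 15 of 17 tumors, Fzd2 in 14, Fzd9 and Fzd10 in 12, Fzd4 in 11 and Fzd7 in 10, each by its more often measured probe. Fzd6 was measured in 5 tumors and Fzd8 in 3. Fzd3 and Fzd5 were each measured in 1 tumor per probe at most. Fzd3 was seen in p75-47 by 1 probe and in p75-129 by the other, and Fzd5 in p75-129 alone. No Frizzled probe was measured in all 17 tumors, 7 of 16 probes were measured in 9 tumors or more, and 3 probes, 1 each of Fzd5, Fzd7 and Fzd8, in none. In the 13 tumors left without the 3 dim tumors and p110-121, a choice made after seeing the data, 8 of 16 probes were measured in 7 or more, and Fzd1 and Fzd2 in all 13.

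**Figure D1:**
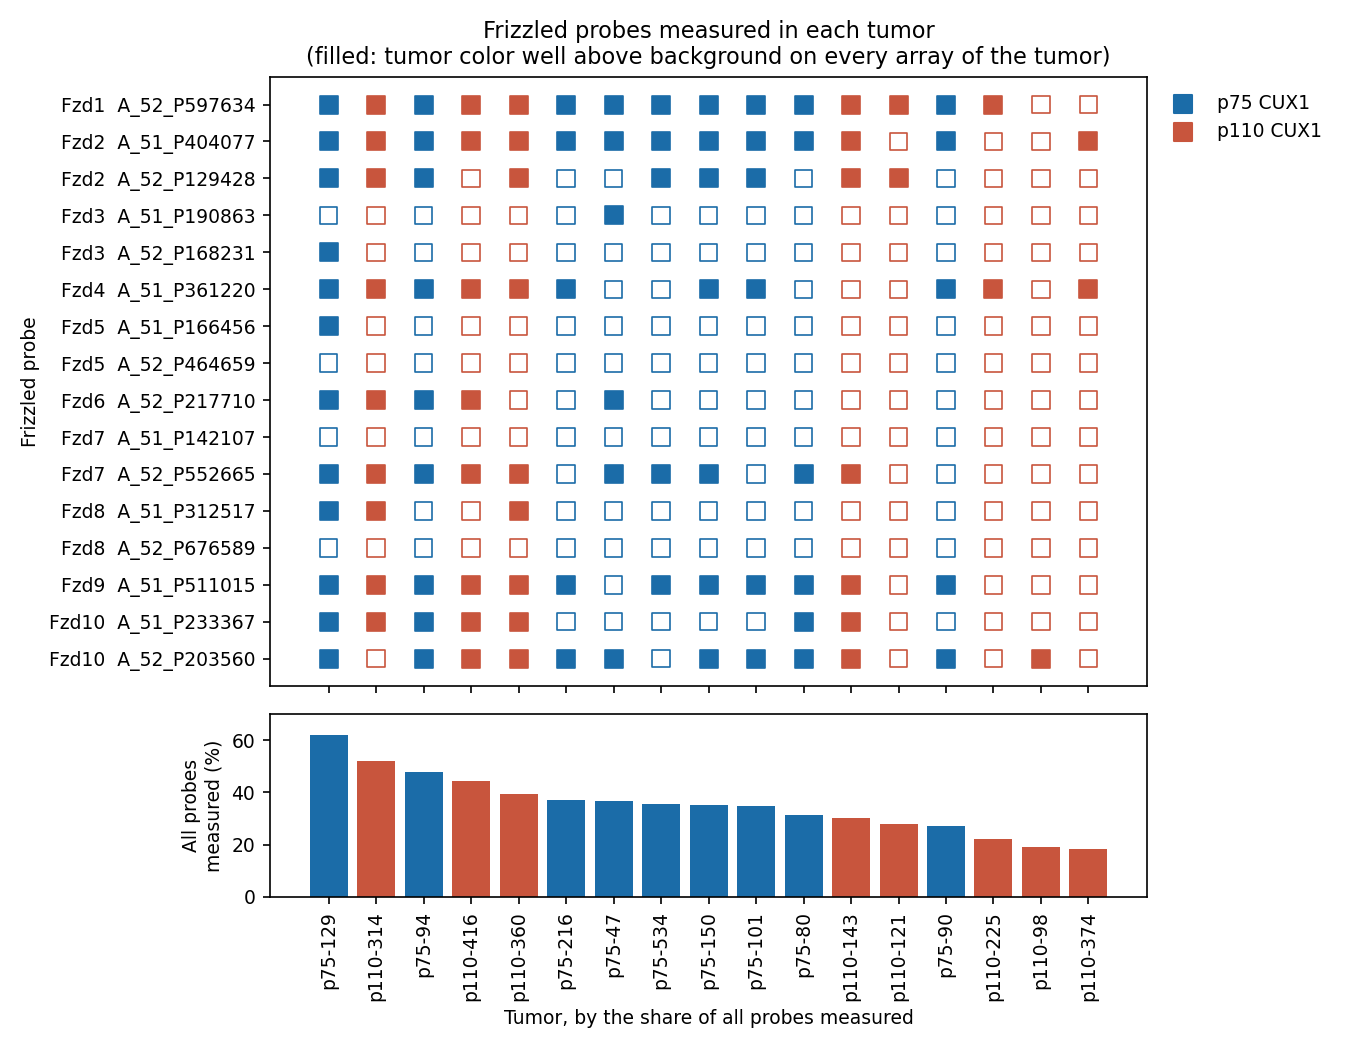
Each square is 1 Frizzled probe (rows) in 1 tumor (columns, ordered by the share of all probes measured), filled where the probe was measured and colored by transgene, and the bars give the percent of all probes measured in that tumor. The filled squares thin out to the right, from 12 Frizzled probes in p75-129 to 1 in p110-98 and 2 in p110-374.

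Tumors with few measured probes also showed few receptors. In p75-129, with 61.8% of all probes measured, 12 Frizzled probes of all 10 genes were measured. In p110-98, p110-374, p110-225 and p110-121, with 18.2% to 28% of all probes, 1 or 2 were. The tumor p75-90, with 27.2% of all probes, had 5. A receptor not measured in these 4 tumors is below detection there and not shown to be absent. The reference RNA gave a second view of the same probes: it was measured beside all 17 tumors for Fzd1, Fzd4 and 1 Fzd2 probe, but beside 5 for Fzd9 and beside 2 for the Fzd10 probe A_52_P203560, although both probes were measured in 12 tumors.

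Paired probes of 1 gene did not see the same RNA equally well. For Fzd10 the probe 943 bases further downstream, A_52_P203560 (chr5:127839139-127839198), was measured in 12 tumors and A_51_P233367 in 7. For Fzd7 the probe 1825 bases downstream, A_52_P552665 (chr1:59737506-59737565), was measured in 10 tumors and A_51_P142107 in none. For Fzd2 and Fzd8 the order was turned. Fzd8 was measured in none by the probe 3210 bases downstream and in 3 by the other, and Fzd2 in 9 tumors by the probe 1432 bases downstream, A_52_P129428, and in 14 by A_51_P404077. The paired probes of Fzd5 were measured in 1 tumor and none, and those of Fzd3 in 1 tumor each. The unmeasured Fzd5 probe is the one that runs against the strand of its gene, so this pair may not read the same RNA. Over the 17 tumors the ratios of the paired probes correlated with Pearson's r of 0.57 for Fzd2, 0.51 for Fzd10, 0.20 for Fzd3, 0.11 for Fzd8, -0.06 for Fzd7 and -0.10 for Fzd5, as a description of points that share arrays and labeling. RNA amplified in 2 rounds is shortened at its 5′ end in general, and its part in these differences was not tested.

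Fzd10 spanned the widest range of the family. On the probe A_52_P203560 the log2 ratio of tumor over reference ran from -0.03 in p110-314 to 5.58 in p75-94, with a median of 1.34. Its SD of 1.72 between tumors was above that of 98.9% of all probes on the array. A set of 5 tumors stood above the rest, at 5.58 in p75-94, 4.90 in p110-416, 4.11 in p75-80, 3.36 in p75-90 and 3.26 in p75-47. They hold 3 high-Wnt adenosquamous carcinomas, a medium-Wnt adenomyoepithelioma and a low-Wnt solid carcinoma, so they share neither histology, cluster nor transgene. The next tumor, p110-143, was at 2.38, and the fourth adenosquamous carcinoma, p75-101, was at 0.88.

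**Figure D2:**
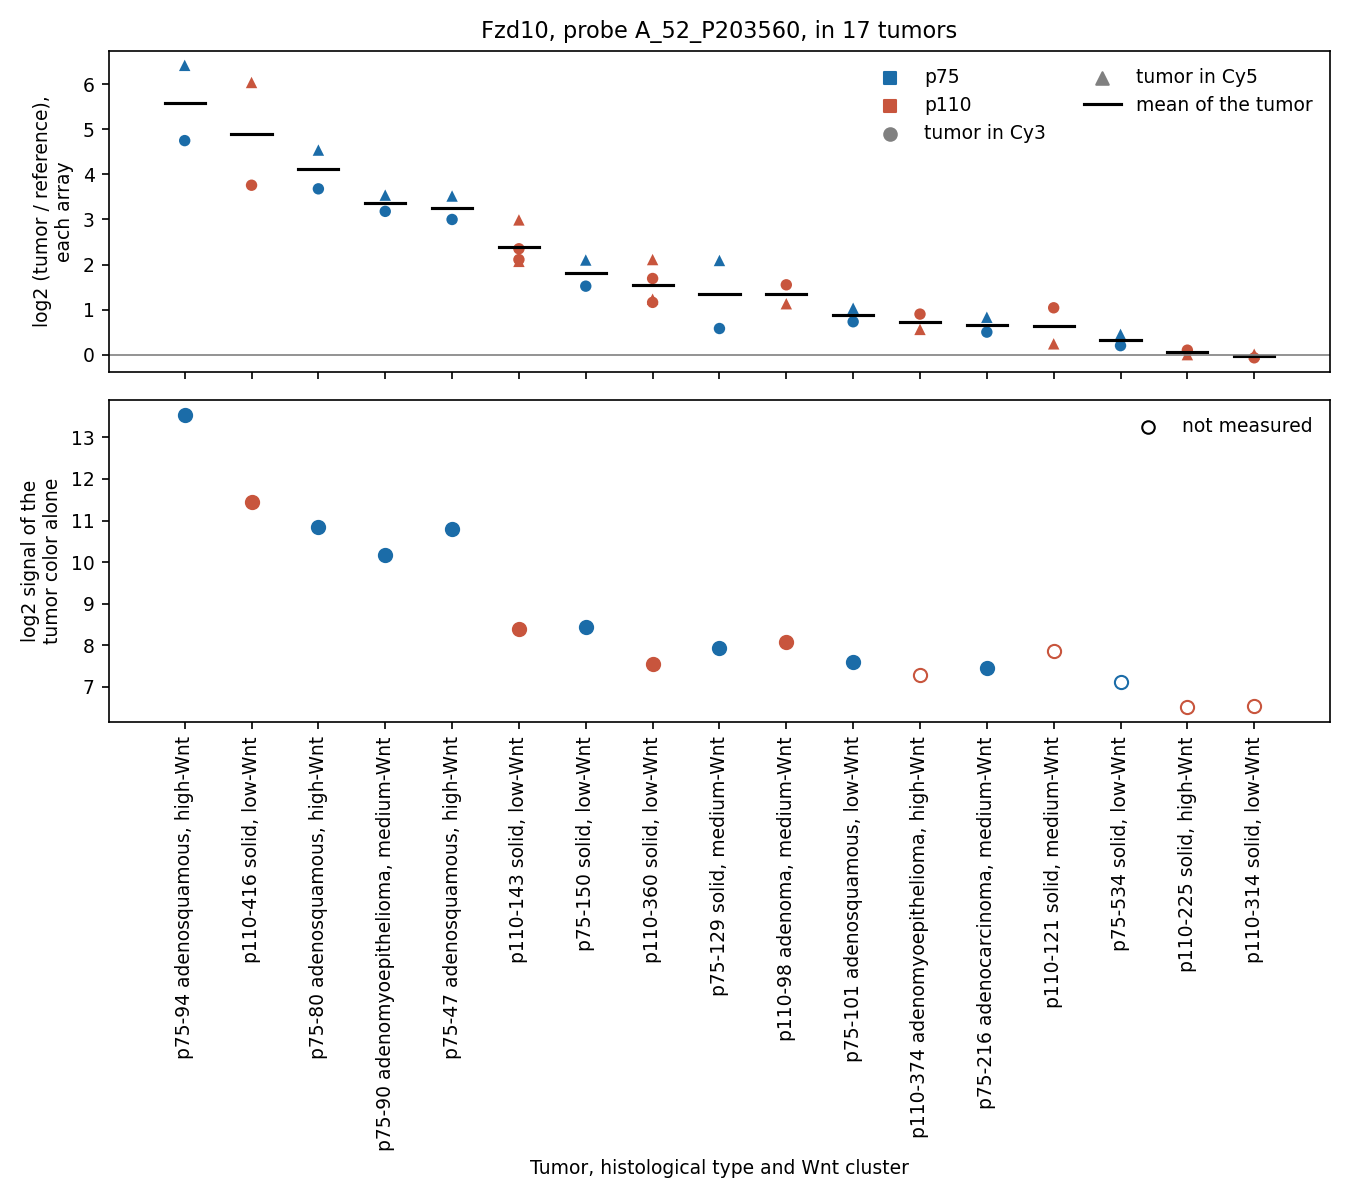
The upper panel gives the log2 ratio of Fzd10 (probe A_52_P203560) on each array, with circles for arrays with the tumor in Cy3, triangles for Cy5 and a line for the mean of the tumor, and the lower panel the log2 signal of the tumor's color alone, open where it was not measured. In the ratio 5 tumors lie at 3.26 or above, and the same 5 lie between 10.17 and 13.55 in the tumor's color, against at most 8.43 in the others.

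The tumor's own color gave the same 5 tumors, but it is the upper part of the same ratio and so no separate support. After normalization between arrays the log2 signal of A_52_P203560 was 13.55 in p75-94, 11.44 in p110-416, 10.84 in p75-80, 10.80 in p75-47 and 10.17 in p75-90, and 6.51 to 8.43 in the other 12. In p75-94 the signal was 339 times its local background and in p110-416 it was 127 times. Repeat arrays of a tumor share its captured cells and amplified RNA, so their gap covers labeling and hybridization only. In p110-416 the ratio was 3.76 with the tumor in Cy3 and 6.04 with the tumor in Cy5, a gap of 2.27, the widest of any tumor for this probe. The median gap between arrays of a tumor was 0.52. Beside the other 15 tumors the reference was not measured on this probe, so those ratios depend on the offset of 50 in the background correction. The upstream probe A_51_P233367 ranged only from -0.19 to 0.62 and reached its 2 highest values in p110-416 at 0.62 and p110-143 at 0.60.

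Within the group of Fzd1, Fzd2 and Fzd7, Fzd1 was the receptor that more tumors showed than any other, by the mark used throughout. By the mark for a positive and significant signal, Fzd2 and Fzd10 each reached 17 tumors and Fzd1 16. The Fzd1 ratio on the probe A_52_P597634 (chr5:4760009-4760068) ran from -1.98 in p110-416 to 1.47 in p75-534 and was below 0 in 11 of 17 tumors. The median gap between repeat arrays was 0.21 and the largest 0.42, and the SD between tumors was 0.82. Fzd2 was lower in tumors than in the reference on the probe A_51_P404077, from -2.95 in p110-360 to 0.06 in p110-374, and below 0 in 16 of 17 tumors. The downstream Fzd2 probe had a median of 0.04 and a range from -1.39 in p110-416 to 0.49 in p110-374, unmeasured in both. It was measured in 9 of 17 tumors, so its ratios near 0 say little about this deficit. Fzd7 on its downstream probe ranged from -0.25 to 1.44, highest in p110-143 and next in p75-94 at 1.14.

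The Fzd4 and Fzd9 genes, in the same sequence group as Fzd10, were moderately variable. Fzd4, which also serves as the receptor for Norrin, ranged from -0.74 in p75-80 to 1.26 in p110-225 (A_51_P361220, chr7:85346032-85346091). Fzd9 ranged from -0.31 in p110-225 to 2.23 in p110-143 (A_51_P511015, chr5:134220225-134220284), and it was below 0 in 5 tumors. Of these, p110-225, p110-374 and p110-121 were among the tumors with few probes measured.

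The other receptors gave little signal. Fzd6, a receptor of the planar polarity branch, lay between -0.34 and 0.68 and was highest in p110-416. Fzd3 lay between -0.45 and 1.05 on 1 probe and between -0.08 and 0.13 on the other. Fzd5 stayed between -0.24 and 0.13 on A_51_P166456. The other Fzd5 probe, which runs against the strand of its gene and was measured in no tumor, lay between -0.18 and 0.40. Fzd8 lay between -0.32 and 1.33 over both probes. The Fzd8 maximum was in p110-360, where that probe, A_51_P312517, was measured. Ratios near 0 of a probe that was measured in neither color carry no information on its level.

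The first comparison asked whether receptors differed between tumors of the 2 transgenes. None of the 16 Frizzled probes passed an adjusted p of 0.05 in limma, against 0.425% of all 41174 probes (89 higher and 86 lower in p75). One of 16, Fzd1, had an unadjusted p under 0.05, against 13.3% of all probes. Fzd1 was at -1.08 to 1.47 in p75 tumors, with a median of 0.19, and at -1.98 to -0.46 in p110 tumors, with a median of -0.83. All 8 p110 tumors were below 0 and 6 of 9 p75 tumors were above it, and the groups overlapped. In p110-98 and p110-374, at -0.77 and -1.10, Fzd1 was not measured. The mean was 0.06 ± 0.73 (SD, n = 9) in p75 and -0.98 ± 0.51 (SD, n = 8) in p110 tumors, and they differed by 1.04 with a standard error of 0.30 (limma p = 0.00302, adjusted p = 0.133, exact two-sided permutation p = 0.00313). Within solid carcinomas alone the difference was 1.26 (3 p75 and 6 p110 tumors, exact permutation p = 0.0476, smallest possible 0.0119), with overlap, and 0 of 16 Frizzled probes were without overlap there, against 3.39% of all probes. Without the 3 dim tumors and p110-121 the Fzd1 difference was 1.24. It was 2.16 with median centering in place of loess (adjusted p = 0.021) and 0.72 in the tumor's color alone (adjusted p = 0.177, exact permutation p = 0.0437). Fzd1 was called with scan day or slide as a random block on arrays (adjusted p = 0.00752 and 0.011), where repeat arrays of a tumor count separately.

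None of the other 15 Frizzled probes had a difference past an unadjusted p of 0.05 between transgenes. Fzd10 on A_52_P203560 was 2.37 ± 1.80 (SD, n = 9) in p75 and 1.45 ± 1.61 (SD, n = 8) in p110 tumors, with wide overlap (adjusted p = 0.665). Fzd9 was 1.02 ± 0.58 in p75 and 0.49 ± 0.88 in p110 tumors (adjusted p = 0.546). Without the 3 dim tumors the difference fell from 0.92 to 0.48 for Fzd10 and from 0.53 to 0.25 for Fzd9. The median difference over the 16 probes was -0.02, against 0.001 over all probes. The share of all probes measured was 27.2% to 61.8% in p75 and 18.2% to 51.8% in p110 tumors, and its part in the Fzd1 difference was not tested. The mean over 8 fibroblast markers was -2.76 to -0.42 in p75 and -4.04 to 0.62 in p110 tumors, so it spanned both signs only in p110, and over 8 basal markers it was 1.89 to 3.99 and -0.15 to 3.90.

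**Figure D3:**
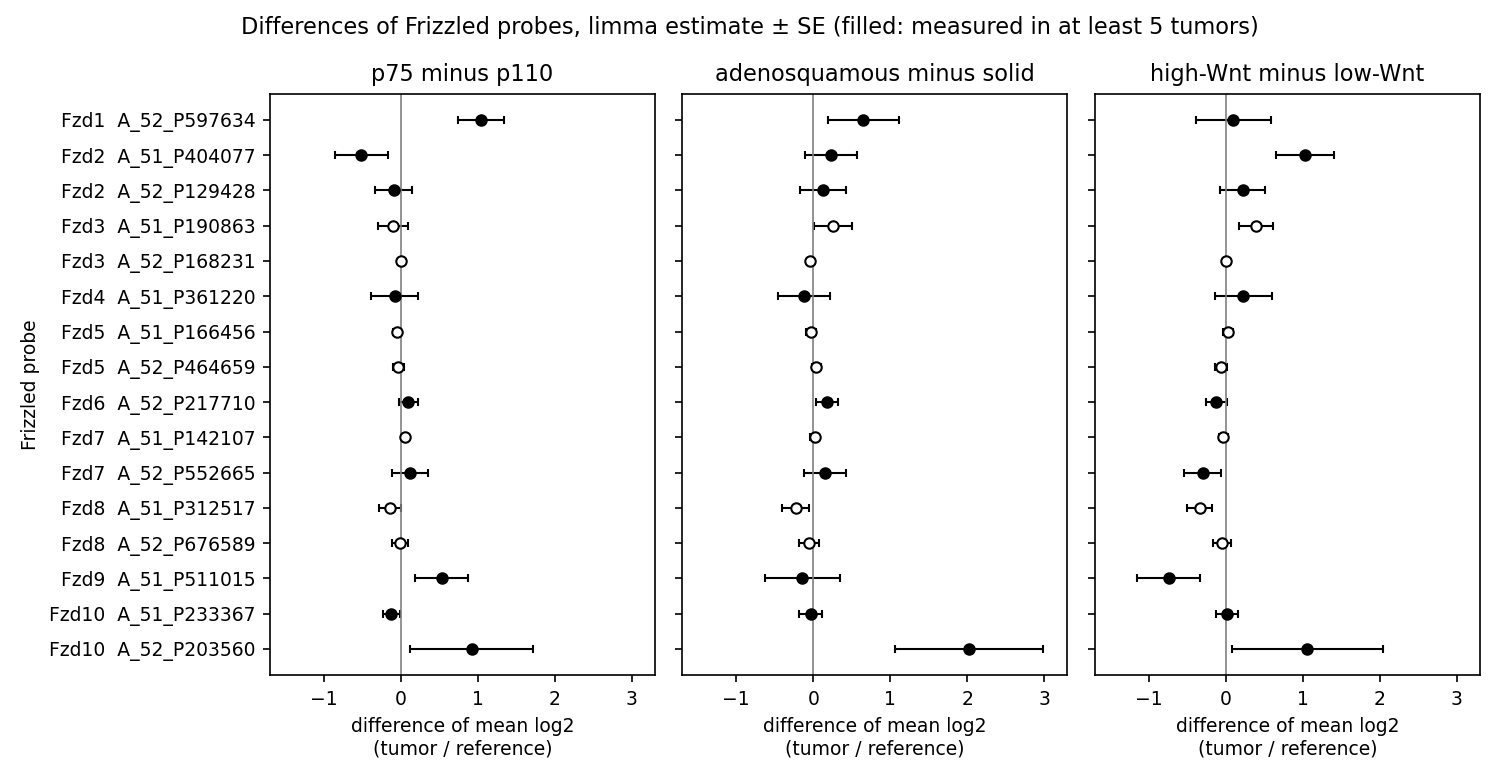
Differences of mean log2 ratio for all 16 Frizzled probes in the 3 comparisons, with points for the limma estimate, bars for its standard error and filled points for probes measured in at least 5 tumors. Fzd1 stands at 1.04 between transgenes, Fzd10 (A_52_P203560) at 2.02 between histological types and Fzd2 (A_51_P404077) at 1.03 between clusters.

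The second comparison set the adenosquamous carcinomas, which hold squamous areas beside glandular epithelium, against the solid carcinomas. No Frizzled probe was called, and neither was any other (0% of 41174 probes), while 2235 probes (5.43%) and 0 of the 16 Frizzled probes had an unadjusted limma p under 0.05. No Frizzled probe had an exact permutation p under 0.05 either. The largest difference was that of Fzd10 on A_52_P203560. Its ratios were 3.26, 4.11, 5.58 and 0.88 in the adenosquamous carcinomas p75-47, p75-80, p75-94 and p75-101, and -0.03 to 4.90 with a median of 1.34 in the solid carcinomas, of which 4 were not measured. Of the 4 adenosquamous tumors, 3 were above all solid carcinomas except p110-416. The means, 3.46 ± 1.97 (SD, n = 4) and 1.44 ± 1.54 (SD, n = 9), were 2.02 apart with a standard error of 0.96 (limma p = 0.0561, adjusted p = 0.881, exact two-sided permutation p = 0.0671). Leaving out p75-94 gave 1.31, and leaving out p75-101 gave 2.88. In the tumor's color alone it was 2.72 (adjusted p = 0.712, exact permutation p = 0.028), and in p75 tumors alone it was 2.30 (exact permutation p = 0.143 with 4 and 3 tumors, smallest possible 0.0286).

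No squamous or basal marker was called in this comparison, where 5.43% of all probes had an unadjusted p under 0.05. Of 8 basal and myoepithelial markers, 3 had such a p, with a median difference of 1.21 over the list. The 4 largest differences, named after their values were seen, were those of Krt14 (3.50, adjusted p = 0.521), Krt5 (3.15), Trp63 (2.73) and Krt17 (2.07), which are keratins and a transcription factor of basal cells. Acta2 and the other contractile genes were at 0.36 or below, and Myh11 (-0.77), Mylk (-0.12) and Oxtr (-0.03) had the opposite sign. The basal mean was 2.55 to 3.99 in adenosquamous and -0.15 to 3.01 in solid carcinomas. In the 5 tumors with the highest Fzd10 it was 2.55 in p75-94, -0.15 in p110-416, 3.99 in p75-80, 3.48 in p75-90 and 2.72 in p75-47. Of 6 squamous markers, 5 had an unadjusted p under 0.05, with a median difference of 0.82 over the list. The 4 largest were Sprr1b (2.09), Lor (1.36), Krt1 (1.08) and Krt6a (0.56), and Krt10 was at -0.15. The other of the 5 was Ivl, which encodes the cornified envelope protein involucrin and was measured in no tumor. Lor was measured in 10 tumors, Krt1 in 5, and Krt6a and Sprr1b in 3 each. The mean over the 6 squamous markers was 2.36 in p75-80 and 1.14 in p75-94, with 5 measured in each. But it was -0.01 in p75-47, with 1 measured. In p75-90 and p110-416 it was 0.22 and -0.06, with 2 measured in each, and these tumors also had high Fzd10. The squamous mean ranged from -0.18 to 0.34 in the solid carcinomas, and the part of either list in the Fzd10 values was not tested. Within p75 tumors 1 of 16 Frizzled probes, that of Fzd6, measured in 3 of these 7 tumors, did not overlap between the types, against 5.02% of all probes. The other types held 2 tumors or 1. On the same Fzd10 probe the adenomyoepitheliomas were at 3.36 and 0.73, the adenoma at 1.34 and the adenocarcinoma at 0.66, all within the range of the solid carcinomas.

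**Figure D4:**
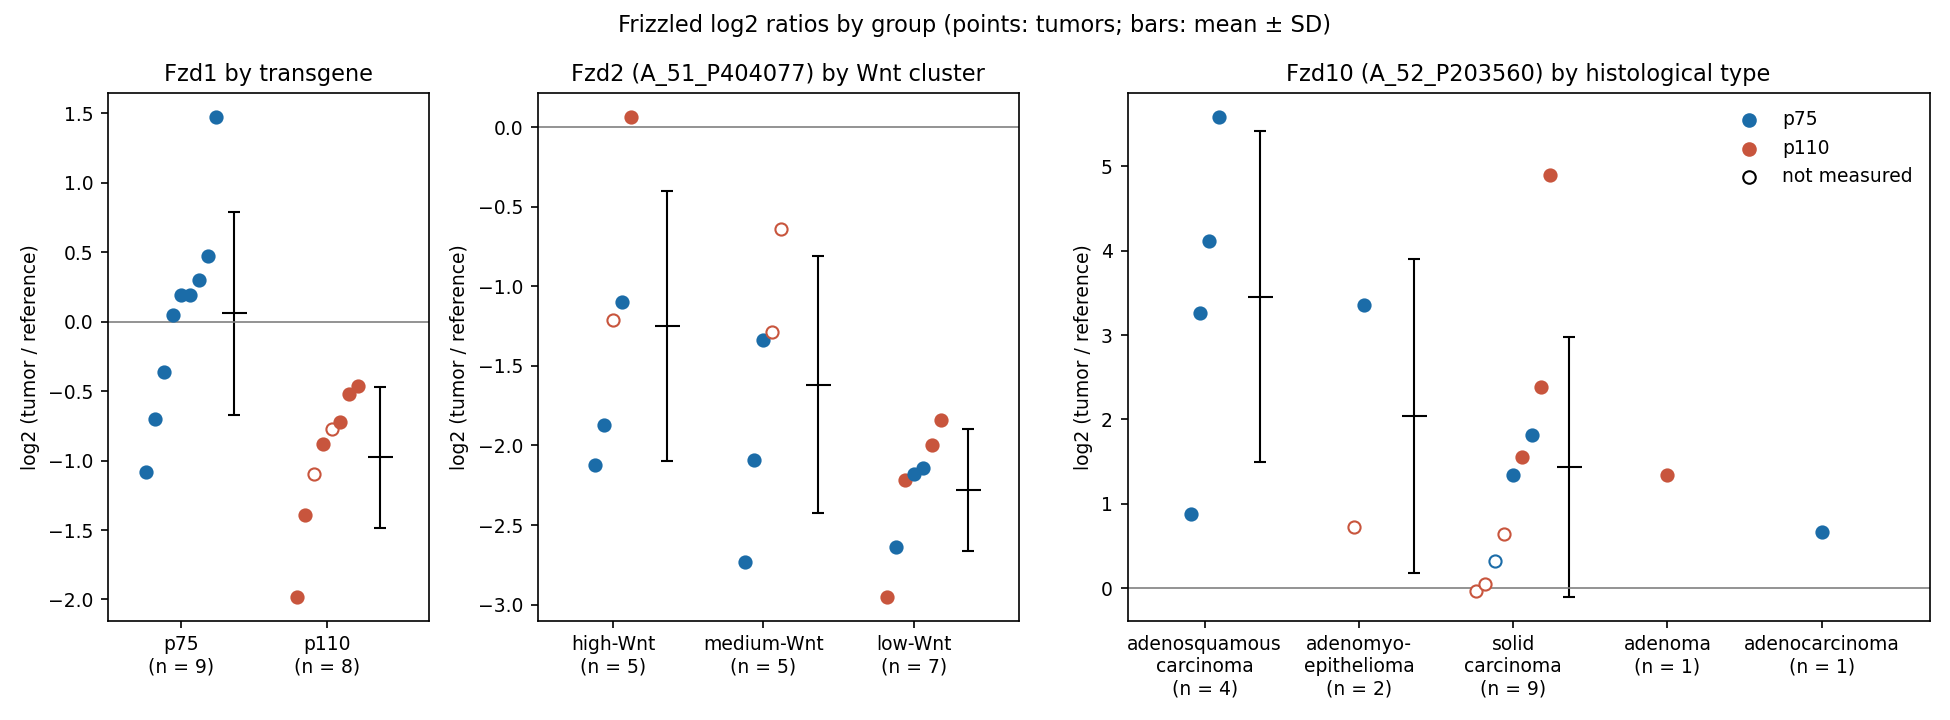
Log2 ratios of Fzd1 by transgene, Fzd2 (A_51_P404077) by Wnt cluster and Fzd10 (A_52_P203560) by histological type, with 1 point per tumor, open where the probe was not measured, and bars for mean ± SD. The p110 tumors lie between -1.98 and -0.46 for Fzd1, the low-Wnt tumors between -2.95 and -1.84 for Fzd2, and p110-416 stands at 4.90 among the solid carcinomas for Fzd10.

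The third comparison asked whether receptors changed with the ligands, by setting high-Wnt against low-Wnt tumors. The clusters were drawn on these arrays from Wnt genes and not from Frizzled genes. No Frizzled probe was called, against 0.0947% of all probes (30 higher and 9 lower in high-Wnt). An unadjusted limma p under 0.05 was reached by 2 of 16, Fzd2 and Fzd8, against 11.5% of all probes. The median difference over the 16 probes was 0.02, against 0.01 over all probes.

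Fzd2 on A_51_P404077 had the smallest adjusted p of the family in this comparison and was not called. Its ratios were -1.87 in p75-47, -2.12 in p75-80, -1.10 in p75-94, -1.21 in p110-225, where it was not measured, and 0.06 in p110-374, and they ran from -2.95 to -1.84 with a median of -2.18 in the low-Wnt tumors. Of the 5 high-Wnt values, 3 were above all low-Wnt values, 1 of them the unmeasured value of p110-225, and the other 2 lay among them. The means, -1.25 ± 0.85 (SD, n = 5) and -2.28 ± 0.38 (SD, n = 7), were 1.03 apart with a standard error of 0.38 (limma p = 0.0155, adjusted p = 0.293, exact two-sided permutation p = 0.00758). Without the 3 dim tumors, 2 of which are p110-225 and p110-374, it was 0.58 (adjusted p = 0.723). The 2 p110 tumors of the high-Wnt cluster had 22.2% and 18.2% of all probes measured, against 30.1% to 51.8% in the low-Wnt tumors. Within p75 tumors it was 0.62 and within p110 tumors 1.68, without overlap in either (in p110 with the unmeasured p110-225). Groups as small as these often do not overlap: 14.2% of all probes and 6 of 16 Frizzled probes, among them the never measured Fzd7 probe, did not in p75 tumors, and 28.5% and 5 of 16 in p110 tumors. With median centering in place of loess it was 0.29 (adjusted p = 0.837), and on the downstream Fzd2 probe 0.22 (adjusted p = 0.81).

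No cell type marker was called between these clusters. An unadjusted p under 0.05, which 11.5% of all probes had, was reached by 5 of 6 squamous markers (median difference over the list 0.76), 3 of 8 basal markers (1.70, with Krt14 and Krt17 higher and Oxtr, measured in 2 tumors, lower in high-Wnt tumors), 2 of 7 endothelial markers (-0.97), 1 of 6 epithelial and 1 of 7 luminal markers, and by no fibroblast, immune or adipocyte marker. Of those 5 squamous markers, Ivl was measured in no tumor, Krt6a and Sprr1b in 3 each, Krt1 in 5 and Lor in 10. The basal mean was 2.55 to 3.99 in high-Wnt and -0.15 to 2.81 in low-Wnt tumors. The squamous mean was -0.01 to 2.36 and -0.18 to 0.13, and the endothelial mean 0.30 to 1.51 and 0.92 to 2.60. Their part in the Fzd2, Fzd8, Fzd9 and Fzd10 differences between clusters was not tested.

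Fzd8 on A_51_P312517 was at 0.05 to 0.14 in high-Wnt and 0.07 to 1.33 in low-Wnt tumors (difference -0.34, standard error 0.16, limma p = 0.0492, adjusted p = 0.43, exact two-sided permutation p = 0.0391). It was measured in none of the 5 high-Wnt and 2 of the 7 low-Wnt tumors, so most of these values are at background. Fzd9 was measured in all 7 low-Wnt and 2 of 5 high-Wnt tumors, with means of 1.03 ± 0.73 (SD, n = 7) and 0.29 ± 0.66 (SD, n = 5), and a difference of -0.74 (adjusted p = 0.53). Of the 3 high-Wnt tumors without it, p110-225 and p110-374 are dim, and without the 3 dim tumors the difference was -0.36 (adjusted p = 0.915). With scan day as a random block on arrays, Fzd2, Fzd8 and Fzd9 were called (adjusted p = 0.00697, 0.0406 and 0.0264), and with slide as the block, Fzd2 and Fzd8 (adjusted p = 0.00847 and 0.0392). With 1 value per tumor and scan day as the block, which was chosen after seeing the data, none was. Fzd1 did not separate the clusters, as its means were -0.32 ± 0.54 (SD, 5 high-Wnt tumors) and -0.41 ± 1.15 (SD, 7 low-Wnt tumors).

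The cluster difference of Fzd10 had opposite signs in the 2 transgenes, and the difference between them was not called. On A_52_P203560 it was 1.06 over all tumors (adjusted p = 0.715), 2.63 without the 3 dim tumors (adjusted p = 0.474), 3.31 within p75 tumors (3 against 3, without overlap like 14.2% of all probes, exact permutation p = 0.1, the smallest possible) and -1.81 within p110 tumors (2 against 4, exact permutation p = 0.4). The p110 value was -0.91 without p110-416, a choice made after seeing the data, and the probe was measured in neither high-Wnt p110 tumor. All 3 high-Wnt p75 tumors are adenosquamous and 2 of the 3 low-Wnt p75 tumors are solid carcinomas. The same 3 high-Wnt tumors are the high-Wnt group without the dim tumors, so cluster and histology are mostly tied together in these values. Only p75-101, at 0.88, is both adenosquamous and low-Wnt, and 1 tumor is too few to tell them apart. The difference between the p75 and p110 differences was 5.12 (limma adjusted p = 0.188). An unadjusted p under 0.05 for such a difference between transgenes was reached by 4 of 16 Frizzled probes, against 11.4% of all probes, and none was called, against 0.00729% of all probes. The others were Fzd4 (-2.15, adjusted p = 0.117), Fzd6 (0.74, adjusted p = 0.133) and Fzd7 on A_52_P552665 (1.05, adjusted p = 0.375) in the same limma fit. Both p110 tumors in the high-Wnt cluster are dim tumors, and in neither was Fzd6, Fzd7 or Fzd10 measured.

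The genes that work beside the Frizzleds were read from lists of co-receptors, turnover factors, Dishevelled and its partners, trafficking and accessory proteins, and planar polarity partners, 38 genes of which 37 were on the array. None was called in any of the 3 comparisons. Unadjusted p-values under 0.05 were reached by 11 of 37 (29.7%, against 13.3% of all probes) between transgenes, by 1 (2.7%, against 5.43%) between histological types and by 5 (13.5%, against 11.5%) between clusters, with median differences of 0.09, 0.04 and 0.05. Between transgenes the 4 largest differences were those of Kremen1, a receptor for Dickkopf proteins (-2.06, adjusted p = 0.142), Dvl2, a Dishevelled (-1.84, adjusted p = 0.169), Shisa2, of a family that retains Frizzleds inside the cell (1.80, adjusted p = 0.421), and Gpr124, a Wnt7 co-activator (-1.61, adjusted p = 0.247). Without the 3 dim tumors these were -1.01, -0.86, 1.25 and -0.62, while Celsr1 went from 1.58 to 2.73. The smallest adjusted p among the partners, 0.0877, was that of Daam1, a formin that binds Dishevelled (1.11, and 0.96 without the dim tumors), and Celsr1 and Daam1 are named here after their values were seen.

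Between histological types the largest of these partners were Celsr1, a planar polarity cadherin (1.66), Dvl2 (-1.17), Kremen1 (-1.17) and Znrf3, the ligase that removes Frizzleds from the membrane (1.07, adjusted p = 0.609). Between clusters they were Celsr1 (2.62), Shisa2 (-2.59), the R-spondin Rspo1 (-1.91) and the co-receptor Lrp5 (1.31), all with adjusted p of 0.332 or above. Lrp5 was measured in all 17 tumors and Lrp6 in 1, and without the 3 dim tumors the Lrp5 difference was 0.30.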

How the data were processed

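Amplified RNA of 17 tumors was measured on 38 two-color Agilent arrays. The authors deposited scanner files with intensity and background values from Feature Extraction, which are not normalized, and a table of log2 ratios of tumor over reference. Checked against the scanner files, the table matched, to within 4.98e-08, background correction by normexp (offset 50), then loess per array and a mean over swapped dyes. Background marks, spot positions and probe names were also taken from the deposited files. The offset pulls ratios of weak spots toward 0, and the effect of loess on them was not tested.

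The table's values were averaged over spots of a probe, without controls, and compared with R 4.3.3 and limma 3.58.1 (Benjamini-Hochberg over 41174 probes, threshold 0.05) and with exact two-sided permutation tests. Each fit held all 17 tumors, with the arrays of a tumor averaged. Partner and marker genes took their brightest probe, and 55.7% of probes were named through RefSeq accessions. Groups follow the labels, and clusters the study's heat map. The members, the lists and the rule for named genes (all Frizzled probes, and of the lists of partner genes those called or else the 4 largest differences) were chosen with earlier results of these data known. The number of arrays limits precision. The limma step was tested on simulated data. Figures were drawn with matplotlib 3.10.9. Alternatives changed the background correction, scaling, filter, probes, dyes, blocks and tumors.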

Additional observations from a re-analysis of the deposited data

Results flagged for a closer look

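Among the 63 groups of 4 to 10 tumors tested over the 9 Frizzled probes measured in at least 5 tumors, 10 held a tumor far from the nearest of the others by Dixon's test, of which chance gives about 1 in 20. For Fzd10 on A_52_P203560 these were p110-416 at 4.90 among solid carcinomas (next 2.38) and p75-90 at 3.36 among medium-Wnt tumors (next 1.34). For Fzd10 on A_51_P233367 they were p75-80 at 0.52, in the p75 tumors (next 0.19) and again in the high-Wnt tumors (next 0.20), and p110-98 at 0.45 among medium-Wnt tumors (next 0.14), where it was not measured. For Fzd1 they were p75-47 at -0.36, the lowest adenosquamous carcinoma (next 0.19), and p75-216 at 0.47, the highest medium-Wnt tumor (next -0.70). Fzd4 was at 1.26 in p110-225, the highest solid carcinoma (next 0.22). Fzd6 was at 0.68 in p110-416, the highest low-Wnt tumor (next 0.21). Its arrays there were at 0.26 with the tumor in Cy3 and 1.10 with the tumor in Cy5, a gap of 0.84. Fzd7 on A_52_P552665 was at 1.14 in p75-94, the highest adenosquamous carcinoma (next 0.37). The causes were not tested.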

How the results depend on the processing

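No Frizzled probe was called between histological types under any of the 21 settings tried or with any of 17 tumors left out (lowest and highest count 0). Between transgenes the count was 1 (Fzd1) with median centering, 1 with scan day and 1 with slide as a random block on arrays, and 0 in the other 17 settings and with any tumor left out. Between clusters it was 3 with scan day and 2 with slide as the block, and 0 in the other 22 and with any tumor left out. Both blocks count repeat arrays of a tumor separately, and with 1 value per tumor and scan day as the block the counts were 0. Probes measured in at least 9 tumors numbered 11 with the mark for a positive and significant signal, which adds Fzd3, Fzd6 and Fzd8, 9 with 1 array enough, and 8 in at least 7 of 13 without the dim tumors and p110-121. Fzd10 (A_52_P203560) between clusters turned to -1.81 in p110 tumors alone and -0.91 without p110-416 among them. With each tumor left out, the Fzd1 difference between transgenes was 0.86 to 1.18, that of Fzd10 between histological types 1.31 to 2.88 and between clusters 0.35 to 1.73, that of Fzd2 0.71 to 1.25 and that of Fzd8 -0.40 to -0.19. Calls over all probes ranged from 0 to 3424 between transgenes (highest in the tumor's color alone), from 0 to 575 between histological types and from 0 to 3263 between clusters (both highest with scan day as the block on arrays). Leaving out each tumor in turn gave 62 to 1219 such calls between transgenes. It gave 0 to 27 between histological types and 6 to 120 between clusters. No paired analysis was possible because replicate numbers were given in accession order and pair no tumors. Tumors below detection for a probe carry only a bound. For Fzd3, Fzd7 and Fzd8 probes above background in only 1 of the groups compared, the bound was under 1-fold, and no fold is given.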

Other observations

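Since no Frizzled probe was measured in all 17 tumors, likeness was read for Fzd10 (A_52_P203560) alone, over the 7844 probes of named genes measured in at least as many tumors, a choice made after its values were seen. The 3 highest Pearson correlations over the 17 tumors were those of Nkpd1 (0.86, Spearman's rho 0.82), Tmem40 (0.86, rho 0.79) and Apcdd1, a membrane inhibitor of Wnt signaling (0.85, rho 0.51). Within the 9 p75 tumors they were 0.89, 0.79 and 0.83, and within the 8 p110 tumors 0.82, 0.95 and 0.87. Apcdd1 ranged from -2.32 to 5.28 in log2 ratio. These are descriptions of points that share arrays, reference and labeling, and were not tested.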
